A study of Arabidopsis thaliana with 45 samples.

Results

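The clinorotated leaves described here are 3 poly(A) RNA libraries, called CL, from leaves of Arabidopsis thaliana Columbia-0 (Col-0, wild type) seedlings, set against the 9 leaf libraries of the unrotated groups Q1L, Q2L and Q3L. They were chosen by their labels alone, and these 12 libraries are 12 of the 45 in the series. The study asked whether seedlings sealed in a Kennedy Fixation Tube (KFT), a piece of spaceflight hardware in which a fixative is released onto the sample, can serve for short gravity experiments, and the clinostat samples ask what a few minutes without a constant gravity direction do to the transcriptome. In all 4 groups the plants were 7 days old. They were kept for 8 h in the dark on day 3 and were then grown under light for another 4 days. All were fixed in the KFT and were dissected into roots and leaves, with hypocotyls set aside. CL plants spent 4 h 14 min in the KFT followed by 4 min on a clinostat turning at 1 rpm. Q1L plants were fixed after 4 h, Q2L plants after 4 h 14 min, the time at which rotation began, and Q3L plants after 4 h 18 min, the time at which it ended. Each library holds 2 plants, and the 3 libraries of a group come from the 2 coupons of 1 KFT, so the vessel and the rotation cannot be told apart and all p-values measure only the spread between libraries of single vessels.

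In shoots, gravity is sensed where starch-filled amyloplasts sink inside the endodermal cells around the vascular tissue, and in roots it is sensed in the columella of the cap. The signal passes through proteins such as those of the LAZY family to auxin carriers of the PIN family, which then move auxin toward the lower side. A clinostat does not remove gravity but turns the plant so that the vector has no constant direction, and it adds handling and slow motion, which plants answer with fast touch and calcium dependent genes.

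The deposited tables hold read counts per gene. Totals were 46685001 to 47976095 counts in CL and 37065949 (Q3L replicate 3) to 54634588 (Q3L replicate 2) in the 9 control libraries, and values are given as CPM, counts scaled to the normalized library size. The correlation of log2 CPM was 0.906 to 0.967 between libraries of 1 group and 0.864 to 0.971 over all 12, and Q1L replicate 1 was the least like the others (median r = 0.89). Leaf identity held, as the 7 mesophyll markers summed to 44892 to 47796 CPM in CL and 31860 to 48000 CPM in the controls, where Q1L replicate 1 was the lowest. The 13 root markers summed to 2.73, 2.121 and 1.405 CPM in CL, against 28.4, 3.61 and 6.83 CPM in Q1L, 9.93, 4.06 and 3.11 CPM in Q2L and 3.09, 2.69 and 7.18 CPM in Q3L. RHD6, EXPA7, CASP1, MRN1 and PLT1 had no count in any CL library. Roots of the same control KFTs held 841 to 1158 CPM, so that root marker RNA was scarce in all leaf libraries and lowest, on the whole, in CL.

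**Figure D1:**
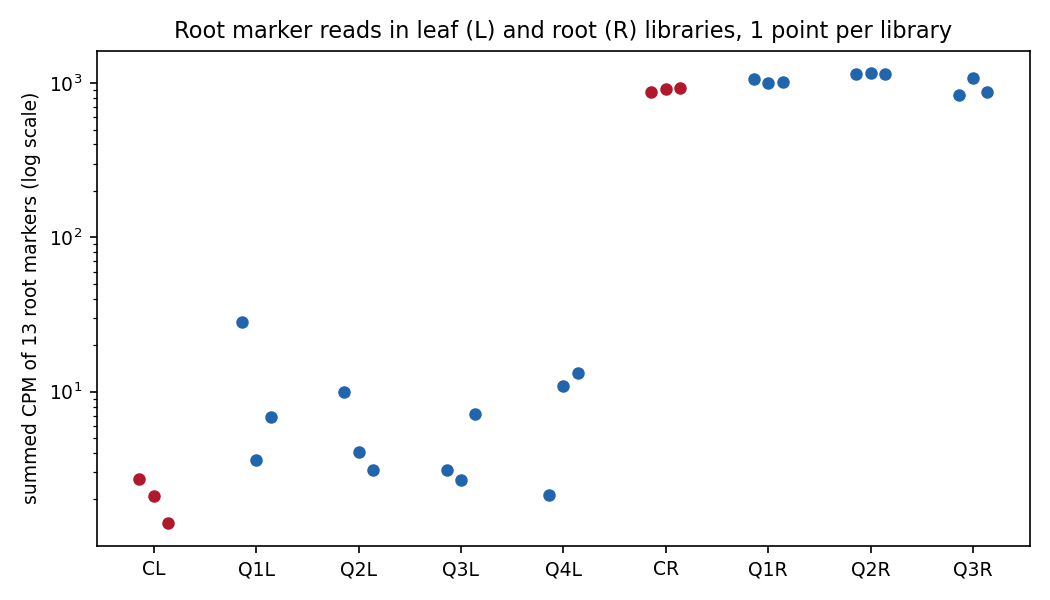
Summed CPM of 13 root markers on a log scale, 1 point per library, in leaf libraries (CL, Q1L to Q4L) and root libraries (CR, Q1R to Q3R), with clinorotated plants in red. CL libraries sit at 1.405 to 2.73 CPM, Q1L replicate 1 reaches 28.4 CPM, and control roots lie between 841 and 1158 CPM.

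Against the mean of Q1L, Q2L and Q3L no gene passed edgeR's test in clinorotated leaves. Of 21648 genes tested, 0 (0.0%) had an adjusted p-value of at most 0.05 by edgeR's quasi-likelihood test with Benjamini-Hochberg adjustment, whether or not the log2 fold change also had to reach 1 or -1, and the lowest adjusted p was 0.377. At an unadjusted p of at most 0.05 stood 1143 genes (5.28%), 436 higher (2.01%) and 707 lower (3.27%) in CL. With the fold requirement 425 remained (1.96%), of which 96 were higher (0.443%) and 329 lower (1.52%). All 3 CL libraries lay below all 9 controls in 120 genes (0.554%) and above them in 120 (0.554%). DESeq2, the tool of the study, gave on the same counts and contrast an adjusted p of at most 0.05 to 57 of 25512 genes (0.223%). Of these, 52 (0.204%) had the fold as well, 51 lower (0.2%) and 1 higher (0.00392%), and all 51 had an unadjusted edgeR p of at most 0.05. Leaving out single libraries, edgeR called 5 genes without Q3L replicate 1, 5 without Q3L replicate 2 and 0 without any of the other 10, while DESeq2 called 25 (without Q2L replicate 1) to 95 (without Q1L replicate 2), with 29 without CL replicate 1, 26 without CL replicate 2, 29 without Q1L replicate 1 and 90 without Q3L replicate 1.

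The genes described next were chosen after their values were seen, from those that only DESeq2 called, those with low edgeR p-values and the members of gene lists, and every log2 fold change below is the edgeR value ± SE of CL minus the mean of the 3 control groups unless said otherwise.

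**Figure D2:**
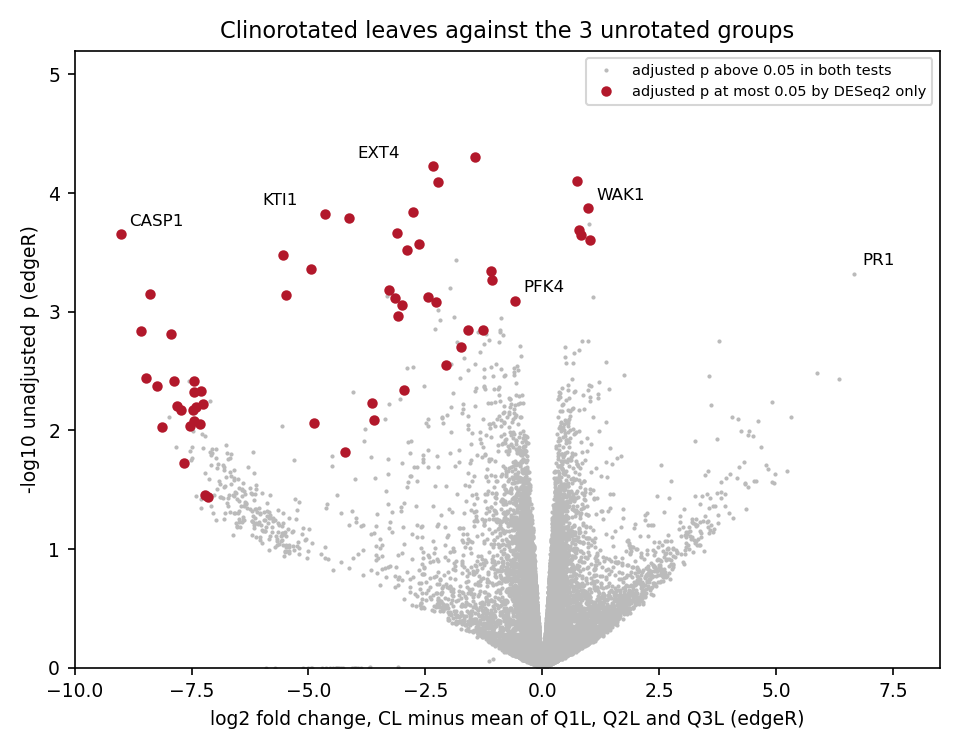
Log2 fold change of CL minus the mean of Q1L, Q2L and Q3L (x axis) against the -log10 of the unadjusted edgeR p (y axis), 1 point per gene. Genes with an adjusted p of at most 0.05 by DESeq2 are red and those that passed in neither test are gray; 51 of the 57 red points are called lower, and no gene passed in edgeR.

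Several genes with lower values in CL were low in both CL and Q2L and higher in most libraries of Q1L and Q3L. EXT4 (AT1G76930, chr1:28895301-28897120 in the RefSeq annotation of TAIR10.1) encodes an extensin, a structural glycoprotein that is cross-linked into the wall by peroxidases. It had 54.6, 41.8 and 81.8 CPM in CL, against 1400.1, 373 and 581 CPM in Q1L, 85.9, 44.0 and 48.5 CPM in Q2L and 421, 1055 and 277 CPM in Q3L. All CL and Q2L libraries lay below all Q1L and Q3L libraries. The log2 fold change was -2.34 ± 0.44 (DESeq2 adjusted p = 0.014, edgeR adjusted p = 0.377), made up of -3.72, -0.00 and -3.30 against Q1L, Q2L and Q3L. In Q4L, unrotated leaves fixed after 4 h 28 min that are outside this comparison, EXT4 had 343, 77.0 and 37.8 CPM, so that unrotated leaves spanned low and high levels without rotation.

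AT5G39580 (chr5:15847065-15849141), peroxidase 62, is a secreted class III peroxidase, the family that makes and breaks bonds between wall polymers with hydrogen peroxide. It had 2.68, 1.60 and 3.65 CPM in CL, against 219, 26.8 and 71.0 CPM in Q1L, 6.10, 6.89 and 9.89 CPM in Q2L and 9.86, 295 and 63.9 CPM in Q3L. All 3 CL libraries were below all 9 controls, but the nearest group was Q2L, whose highest library lay just above Q3L replicate 1, with differences of -5.32, -1.53 and -5.54 from Q1L, Q2L and Q3L around the combined -4.13 ± 0.85 (DESeq2 adjusted p = 0.002, edgeR adjusted p = 0.377). AT4G15610, a CASP-like membrane protein, had 6.88, 3.72 and 10.497 CPM in CL, against 109, 34.7 and 94.3 CPM in Q1L, 12.03, 8.43 and 12.6 CPM in Q2L and 27.1, 269 and 75.9 CPM in Q3L. It showed the same order of groups, with Q2L just above CL and single libraries of Q1L and Q3L far higher, and a combined value of -2.76 ± 0.56 (DESeq2 adjusted p = 0.0067, edgeR adjusted p = 0.377). XTH24, a xyloglucan endotransglucosylase/hydrolase that cuts and rejoins wall xyloglucan, had 96.9, 79.2 and 114 CPM in CL, against 588, 278 and 527 CPM in Q1L, 253, 94.8 and 106 CPM in Q2L and 164, 1351 and 436 CPM in Q3L. Here Q2L overlapped CL on 1 side and, with replicate 1, Q3L on the other, the log2 fold change was -1.88 ± 0.48, and neither test passed it (edgeR adjusted p = 0.658, DESeq2 adjusted p = 0.2).

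Further genes of this kind were AT1G30720, a berberine bridge enzyme-like oxidoreductase (-2.24 ± 0.43), the ERF factor AT1G36060 (-3.10 ± 0.66), the lipid transfer-like proteins AT4G12490 (-2.90 ± 0.64) and EARLI1 (-2.30 ± 0.60), and AT4G37520, peroxidase 50 (-1.84 ± 0.41). AT4G12490 and EARLI1 belong to a cluster of similar neighboring genes, of which only uniquely mapped reads were counted. Against Q2L the differences of these genes were smaller, at -0.05 for EARLI1, -0.35 for AT4G37520 and -1.46 for AT1G36060, while against Q1L and Q3L they ran from -4.65 (AT4G12490, Q3L) to -2.42 (AT4G37520, Q1L). Of the 51 genes that DESeq2 called lower, 10 had a log2 difference above -1 from Q2L, against 1 from Q1L and 1 from Q3L. The 3 single-group contrasts share the CL libraries. In the edgeR fit CL minus Q1L called 1 gene (0.00462%), which was EXT4, while CL minus Q2L and CL minus Q3L called 0 each (0.0%), beside 589, 377 and 500 genes at an unadjusted p of at most 0.05 with the fold. DESeq2 was not run on single groups.

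**Figure D3:**
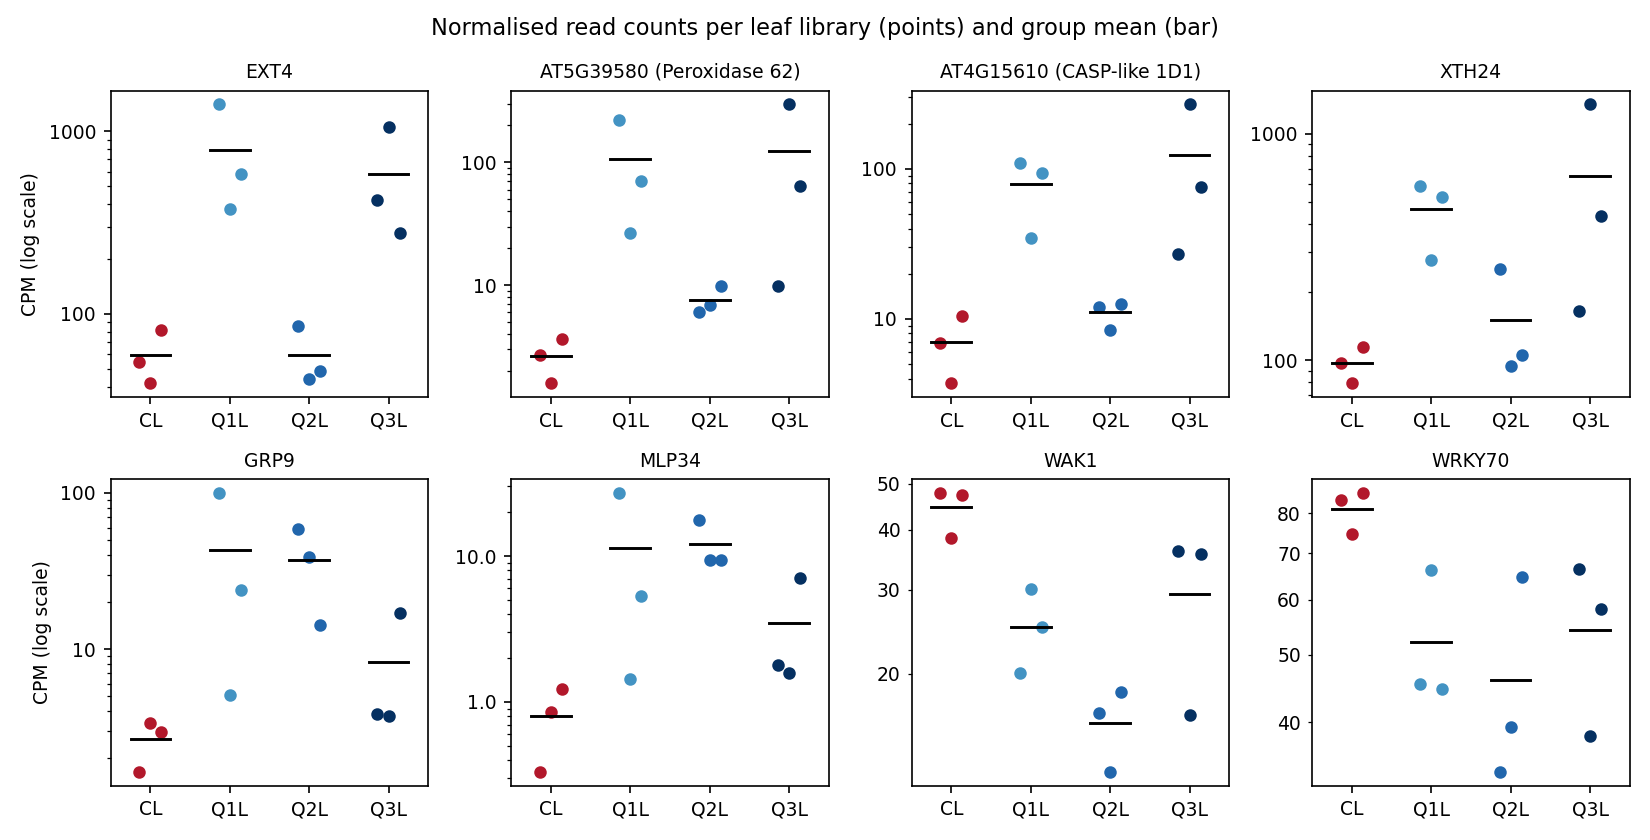
CPM on a log scale of 8 genes in the 3 libraries of each group (points) with the group mean (bar), CL in red and the unrotated groups in blue. In the upper row CL and Q2L are low and most Q1L and Q3L libraries high, and in the lower row GRP9 and MLP34 are lowest in CL while WAK1 and WRKY70 are highest in CL.

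The unrotated groups also differed from each other. Among Q1L, Q2L and Q3L 14 genes (0.0647%) passed the edgeR F test at an adjusted p of at most 0.05, and in pairs 1 gene passed in Q2L minus Q1L, 5 in Q3L minus Q1L and 39 in Q3L minus Q2L. The count among the 3 groups was 6 without CL replicate 3, 58 without Q1L replicate 1, 68 without Q1L replicate 2 and 105 without Q3L replicate 1. EXT4 was 1 of the 14 (adjusted p = 0.019). Another 8 were genes of the light-harvesting antenna, the chlorophyll-binding proteins that pass light energy to the photosystems, of which 20 were tested. LHCB3, of these 8, had 1337, 1745 and 1546 CPM in CL, against 949, 1161 and 874 CPM in Q1L, 1021, 669 and 1018 CPM in Q2L and 2489, 2297 and 2114 CPM in Q3L (adjusted p among controls = 0.0027). CL lay between the groups, above Q1L and Q2L and below Q3L, with log2 differences of 0.63, 0.77 and -0.58, and its mean difference was 0.28 ± 0.14 (edgeR adjusted p = 0.933). The 20 antenna genes had a median of 0.50 against Q1L, 0.39 against Q2L and -0.37 against Q3L, and 0 passed in CL against the mean.

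**Figure D4:**
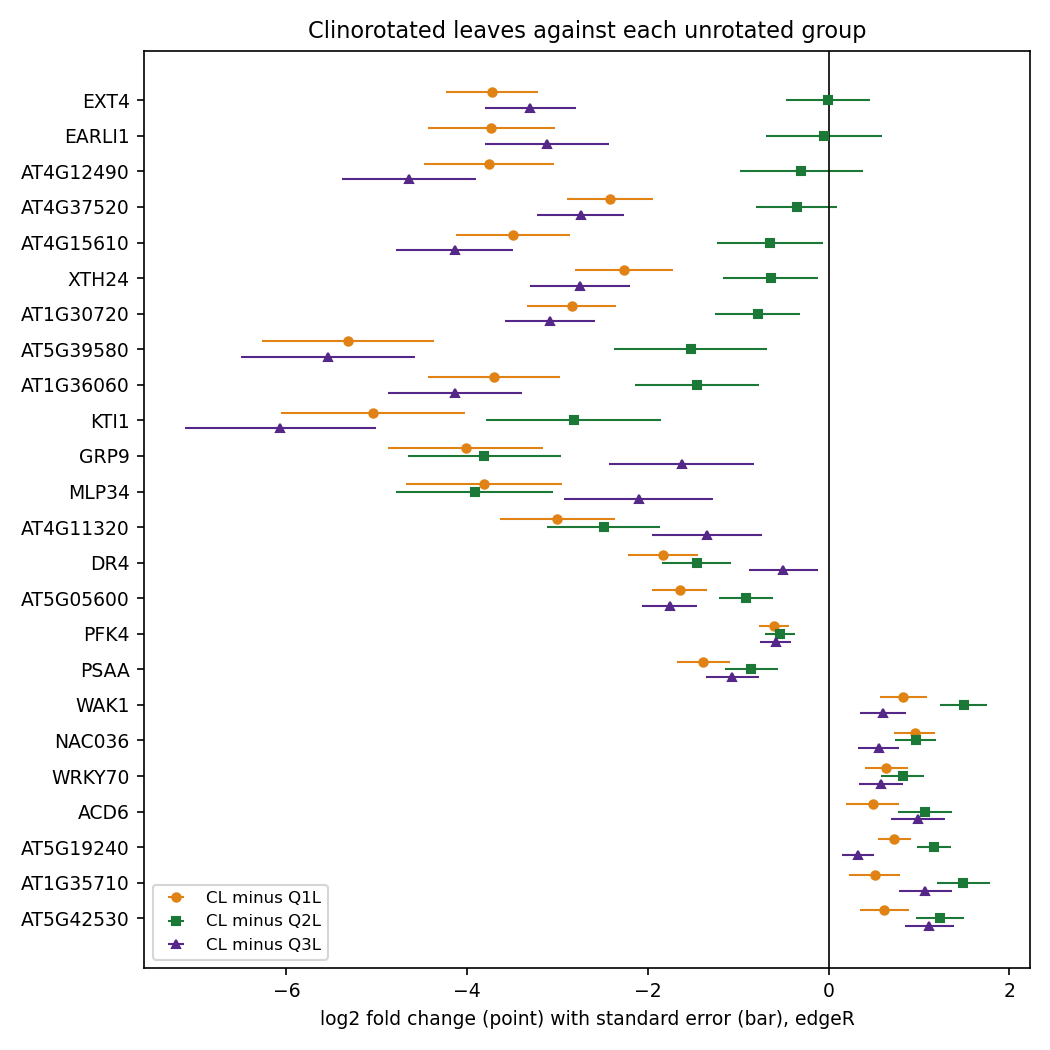
Log2 fold change with its SE (edgeR) of CL minus Q1L, minus Q2L and minus Q3L for 24 genes chosen after their values were seen. For EXT4 the differences are -3.72, -0.00 and -3.30, whereas those of PFK4 (-0.60, -0.54 and -0.59) and NAC036 (0.95, 0.96 and 0.55) have 1 sign against all 3 groups.

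Many of the genes low in CL were higher in roots than in leaves. Of the 51 genes called lower by DESeq2, 32 (62.7%) were higher in control roots than in control leaves (adjusted p of at most 0.05 and fold, edgeR, which held for 4935 of the 23418 genes tested over both tissues, 21.1%), and 22 of the 51 had no count in any CL library. EXT4, AT4G15610 and AT1G36060, described above, are among the 32, with log2 differences of 1.19, 1.48 and 1.76 between control roots and control leaves. That share was 54.7% (180 of 329) among the genes lower at an unadjusted p with the fold, 26 of 96 among those higher, and 17.0% of all genes tested. In bulk tissue fewer cells of a type and less RNA per cell cannot be told apart. The root marker sums given above were also on the whole lowest in CL. Among the controls they were highest in Q1L replicate 1, as was EXT4. AT4G15610 was instead highest in Q3L replicate 2, the control library with the lowest sum (2.69 CPM). CASP1 and EXPA7 are in both the 51 genes and the marker list. The part of root marker RNA in the result was not tested.

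CASP1, a scaffold of the Casparian strip in the root endodermis and 1 of the 13 root markers, was at 0 in all 3 CL libraries and at 0.317 to 9.02 CPM in the 9 control leaf libraries. Against a floor of 3 counts over the 3 CL libraries together (0.0211 CPM, which covers counting error only) CL was at least 82.7-fold lower than the control mean of 1.74 CPM (DESeq2 adjusted p = 9.7e-05, edgeR adjusted p = 0.377), and control roots held 172 CPM. Without Q1L replicate 1, a check added after seeing the data, the bound for CASP1 was 39.5-fold. With all 9 controls the root hair expansin EXPA7, another of the markers, was at least 35.8-fold lower, the lateral root expansin EXPA17 at least 45.6-fold lower and the tonoplast aquaporin TIP2;3 at least 29.5-fold lower. The bound was 13.9-fold for EXPA7 without Q1L replicate 1 and 16.0-fold for TIP2;3 without Q2L replicate 1. MAPKKK19, a mitogen-activated protein kinase kinase kinase, was also at 0 in CL and at least 43.4-fold lower. However, control roots (1.04 CPM) held about as much of it as control leaves (1.02 CPM), both scaled over leaf and root libraries together.

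The glycine-rich protein GRP9 had 1.64, 3.36 and 2.96 CPM in CL, against 100.0, 5.12 and 23.8 CPM in Q1L, 58.9, 38.6 and 14.2 CPM in Q2L and 3.87, 3.75 and 17.1 CPM in Q3L. CL lay below every control library, and control roots averaged 1247 CPM. MLP34, of the major latex protein family, had 0.333, 0.851 and 1.22 CPM in CL, against 27.0, 1.44 and 5.30 CPM in Q1L, 17.5, 9.42 and 9.35 CPM in Q2L and 1.80, 1.57 and 7.02 CPM in Q3L, again with all CL libraries below all controls, and its log2 fold change of -3.28 ± 0.78 is close to that of GRP9 (-3.15 ± 0.77). KTI1, a Kunitz trypsin inhibitor, had 0.187, 0.447 and 0.672 CPM in CL, against 27.0, 4.96 and 11.2 CPM in Q1L, 5.31, 2.28 and 1.67 CPM in Q2L and 7.65, 77.0 and 3.36 CPM in Q3L. In KTI1 the highest library was Q3L replicate 2, which held few root marker reads (2.69 CPM), and the fold change was -4.64 ± 0.95 (DESeq2 adjusted p = 0.00057, edgeR adjusted p = 0.377). The papain-type protease gene AT4G11320 (-2.28 ± 0.56), DR4 (-1.27 ± 0.33) and the alpha-dioxygenase DOX1 (-2.95 ± 0.90) were lower as well, with 1689, 2377 and 793 CPM in control roots. Without the control library of each group that held most root marker reads (Q1L replicate 1, Q2L replicate 1 and Q3L replicate 3), DESeq2 called 47 genes, 8 higher and 39 lower, and edgeR 0.

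AT5G05600, a 2-oxoglutarate-dependent dioxygenase, had the lowest edgeR p of all genes (5.0e-05). It had 5.53, 3.91 and 4.98 CPM in CL, against 16.6, 10.4 and 18.0 CPM in Q1L, 9.68, 8.79 and 8.66 CPM in Q2L and 12.6, 24.6 and 11.6 CPM in Q3L. All 3 CL libraries were below all 9 controls, and the log2 fold change was -1.44 ± 0.27 (DESeq2 adjusted p = 0.0004, edgeR adjusted p = 0.377), with -1.64, -0.91 and -1.76 against Q1L, Q2L and Q3L. It was also higher in control roots (54.9 CPM) than in control leaves (15.02 CPM), both scaled over leaf and root libraries together. The part of root marker RNA in the difference of AT5G05600 was not tested. PFK4, a phosphofructokinase of glycolysis, had 20.03, 15.8 and 19.6 CPM in CL, against 24.6 to 32.1 CPM in the 9 control libraries (median 26.6 CPM). Its small difference of -0.58 ± 0.14 was nearly equal against each group (-0.60, -0.54 and -0.59), and the groups did not overlap. PSAA, a core subunit of photosystem I encoded in the plastid, had 16.8, 21.2 and 19.1 CPM in CL, against 27.0 to 68.7 CPM in the 9 control libraries (median 33.9 CPM) and a log2 fold change of -1.10 ± 0.25. The 117 plastid genes tested had a median of 0.05. At an unadjusted p of at most 0.05, 13 were higher and 11 lower, beside 2.01% and 3.27% of all genes. All 3 CL libraries lay above all 9 controls in 1 of the 117 and below them in 8, beside 0.554% of all genes each way. Poly(A) selection captures plastid transcripts incompletely.

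The genes higher in CL that DESeq2 passed were 5, WAK1, NAC036, AT5G19240, AT1G35710 and the mitochondrial ATMG00090, with log2 fold changes of 0.74 to 1.02. WAK1 (chr1:7439171-7442113), a wall-associated receptor kinase that binds pectin and its fragments, lies in a cluster of similar WAK genes, of which only uniquely mapped reads were counted. It had 47.8, 38.5 and 47.4 CPM in CL, against 20.1, 30.1 and 25.01 CPM in Q1L, 16.5, 12.5 and 18.3 CPM in Q2L and 36.2, 16.4 and 35.5 CPM in Q3L. CL was above all 9 controls, Q2L was the lowest group, and the log2 fold change was 0.98 ± 0.20 (DESeq2 adjusted p = 0.014, edgeR adjusted p = 0.377). NAC036, a NAC transcription factor, had 15.66, 17.1 and 18.202 CPM in CL, against 6.83 to 13.1 CPM in the 9 control libraries (median 9.37 CPM), again with no overlap, and a difference of 0.82 ± 0.18. AT5G19240, a GPI-anchored protein, had 111, 86.0 and 88.9 CPM in CL, against 68.5, 57.9 and 46.4 CPM in Q1L, 36.7, 44.0 and 46.5 CPM in Q2L and 66.8, 67.1 and 94.3 CPM in Q3L. Here Q3L replicate 3 overlapped CL, and the difference was 0.74 ± 0.14. AT1G35710, a leucine-rich repeat receptor-like kinase, had 28.8, 14.9 and 34.0 CPM in CL, against 7.91 to 21.4 CPM in the 9 control libraries (median 10.48 CPM) and the only fold of 1 or more among the 5 (1.02 ± 0.22).

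WRKY70, a transcription factor that favors salicylate over jasmonate responses, had 83.4, 74.7 and 85.6 CPM in CL, against 45.4, 66.3 and 44.6 CPM in Q1L, 33.9, 39.3 and 64.8 CPM in Q2L and 66.5, 38.2 and 58.2 CPM in Q3L. All CL libraries were above all controls, with a log2 fold change of 0.68 ± 0.19 (edgeR adjusted p = 0.779). ACD6, an ankyrin-repeat membrane protein of salicylate-dependent resistance, had 60.9, 34.8 and 44.7 CPM in CL, against 13.8 to 39.7 CPM in the 9 control libraries (median 29.997 CPM), with an overlap, and 0.85 ± 0.23. PR1, the usual marker of the salicylate response, had 4.83, 0 and 4.11 CPM in CL, against 0, 0.0405 and 0 CPM in Q1L, 0, 0 and 0 CPM in Q2L and 1.61, 0.199 and 0 CPM in Q3L. It was high in replicates 1 and 3 of CL and had no count in replicate 2, which was also the lowest CL library in BGL2, a beta-1,3-glucanase with 35.6, 0.106 and 7.58 CPM in CL, against 0 to 4.45 CPM in the controls. Of the 34 genes tested in the list of defense and salicylate genes 0 passed, 10 were higher and 3 lower at an unadjusted p of at most 0.05, beside 2.01% and 3.27% of all genes, and the median log2 fold change was 0.36 beside 0.00 for all genes. The median was 0.10 against Q1L, 0.67 against Q2L and 0.29 against Q3L, and it was 0.17 without CL replicate 1, 0.23 without CL replicate 3, 0.24 without Q1L replicate 2, 0.20 without Q1L replicate 3 and 0.24 without Q2L replicate 2. DESeq2 passed 0 members higher and 2 lower. The 3 lower members were KTI1, PDF1.4 (-2.64 ± 0.57), a defensin-like protein, and EARLI1.

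The start regions of 4 of these genes are shown because they stand for the sets above: EXT4 and AT5G39580 for genes low in both CL and Q2L, and WAK1 and WRKY70 for genes high in CL. Each is the 250 bases before the annotated start in the RefSeq annotation of TAIR10.1, 5′ to 3′ on the strand of the gene, and capitals mark TTGAC, read on either strand, the core of the W-box that WRKY factors bind.
EXT4, chr1:28897121-28897370, minus strand: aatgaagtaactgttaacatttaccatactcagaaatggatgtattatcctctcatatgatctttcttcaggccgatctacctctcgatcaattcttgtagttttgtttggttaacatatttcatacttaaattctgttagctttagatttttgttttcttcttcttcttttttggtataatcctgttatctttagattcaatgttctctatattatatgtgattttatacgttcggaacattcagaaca
AT5G39580, chr5:15849142-15849391, minus strand: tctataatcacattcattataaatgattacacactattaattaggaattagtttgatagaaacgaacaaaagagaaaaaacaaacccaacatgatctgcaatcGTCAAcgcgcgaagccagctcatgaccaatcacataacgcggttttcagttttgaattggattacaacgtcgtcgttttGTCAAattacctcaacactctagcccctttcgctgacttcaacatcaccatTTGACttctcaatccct
WAK1, chr1:7438921-7439170, plus strand: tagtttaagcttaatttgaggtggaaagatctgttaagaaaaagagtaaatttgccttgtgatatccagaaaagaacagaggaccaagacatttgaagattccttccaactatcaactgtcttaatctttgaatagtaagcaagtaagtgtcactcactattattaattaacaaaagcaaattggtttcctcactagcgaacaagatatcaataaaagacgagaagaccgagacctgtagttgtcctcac
WRKY70, chr3:20910624-20910873, minus strand: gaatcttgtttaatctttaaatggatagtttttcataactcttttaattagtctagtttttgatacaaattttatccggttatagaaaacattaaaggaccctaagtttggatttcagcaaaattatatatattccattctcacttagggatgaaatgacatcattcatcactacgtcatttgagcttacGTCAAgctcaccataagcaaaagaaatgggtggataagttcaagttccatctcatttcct
AT5G39580 held 3 cores, beginning 147, 68 and 17 bases before the start, WRKY70 held 1 at 60 bases before it, and EXT4 and WAK1 held 0. Of 21462 windows of this length 44.8% held TTGAC on either strand, so the letters are common, and their presence was not tied to the expression values. The G-box CACGTG, found in 7.06% of windows, was in none of the 4.

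None of the genes of gravity sensing or auxin transport passed. Of 14 members of the gravity list, which holds genes of starch synthesis and degradation, endodermal identity, amyloplast sedimentation and LAZY proteins, 0 passed and 0 reached an unadjusted p of at most 0.05, with a median of -0.06. Its member with the lowest p was SEX1, the glucan water dikinase that starts starch breakdown, with 91.3, 63.3 and 91.3 CPM in CL, against 123.1, 109 and 109.5 CPM in Q1L, 88.2, 99.6 and 98.7 CPM in Q2L and 89.1, 156 and 73.1 CPM in Q3L. The CL libraries lay within the control range except replicate 2, the lowest of all 12, and the difference was -0.36 ± 0.18 (edgeR adjusted p = 0.939). SGR5, a zinc finger protein needed for shoot gravitropism, had 10.48, 8.83 and 10.497 CPM in CL, against 6.28 to 9.90 CPM in the 9 control libraries (median 7.77 CPM), and PGM, the plastid phosphoglucomutase of starch synthesis, 139.9, 150.2 and 137 CPM in CL, against 92.7 to 167 CPM in the 9 control libraries (median 126 CPM). Of 13 auxin transport genes 0 passed and 0 reached an unadjusted p of at most 0.05, with a median of 0.07. PIN7, an auxin efflux carrier, had 168, 128 and 177 CPM in CL, against 104, 152 and 127 CPM in Q1L, 142, 139.6 and 166 CPM in Q2L and 157, 82.6 and 103 CPM in Q3L. CL overlapped all 3 groups, and the difference was 0.28 ± 0.17 (edgeR adjusted p = 0.957). The related carrier PIN3 had a difference of 0.22 ± 0.15.

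Of 22 fast touch and stress genes, 3 were higher and 1 was lower at an unadjusted p of at most 0.05, beside 2.01% and 3.27% of all genes, 0 passed, and the median was 0.16. By group it was 0.31 against Q1L, 0.28 against Q2L and -0.0049 against Q3L, and without CL replicate 1 it was 0.07. The 3 higher were WRKY33, a regulator of camalexin synthesis, with 160.5, 139 and 142 CPM in CL, against 82.4 to 126 CPM in the 9 control libraries (median 109 CPM) and a difference of 0.43 ± 0.13, the zinc finger protein CZF1 (0.28 ± 0.12) and RHL41 (0.42 ± 0.19), also known as ZAT12. The calmodulin-like touch genes TCH2 (0.18 ± 0.17) and TCH3 (0.16 ± 0.15) and the xyloglucan enzyme TCH4 (-0.08 ± 0.16) overlapped between CL and controls.

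Among the 50 lists, 0 had a member that passed in edgeR. The class III peroxidases had a median of -0.70 over 56 members, with 0 higher and 13 lower at an unadjusted p of at most 0.05, beside 2.01% and 3.27% of all genes. This list was drawn by annotated product and may hold related enzymes such as the alpha-dioxygenase DOX1. Of the 56, 40 were higher in control roots than in control leaves, beside 17.0% of all genes. Their median was -1.02 against Q1L, -0.31 against Q2L and -0.31 against Q3L. It was -1.09 without CL replicate 1, -1.11 without CL replicate 3, -0.44 without Q1L replicate 1 and -0.26 without the 3 control libraries richest in root marker reads. The 16 extensins had a median of -0.54, 0 higher and 4 lower, and 14 members were higher in control roots. By group the median was -1.76 against Q1L, -0.48 against Q2L and 0.21 against Q3L. It was -1.55 without CL replicate 1, -0.86 without CL replicate 2, -1.19 without CL replicate 3 and -0.31 without Q1L replicate 3. Sulfur starvation genes had a median of -0.58 (11 tested, 0 higher, 0 lower), phosphate starvation genes -0.48 (8 tested, 0 higher, 2 lower) and iron genes -0.47 (17 tested, 0 higher, 3 lower). In that order, 8, 2 and 4 members were higher in control roots. Without the 3 control libraries richest in root marker reads the medians were -0.32, -0.17 and -0.10. The iron median was -0.21 without Q2L replicate 1 alone.

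All 15 genes of the dark and sugar starvation list had a negative log2 fold change, where 50.1% of all genes had a positive difference, with a median of -0.57. At an unadjusted p of at most 0.05, 0 were higher and 6 lower, beside 2.01% and 3.27% of all genes. SEN1, a marker of dark-induced senescence, had 224, 221 and 190.4 CPM in CL, against 355, 341 and 365 CPM in Q1L, 255, 211 and 208 CPM in Q2L and 223, 1505 and 477 CPM in Q3L. CL overlapped Q2L and Q3L replicate 1, while Q3L replicate 2 stood far above the other libraries. The asparagine synthetase ASN1 had 1081 CPM in that library and at most 200.3 CPM in the other 8 controls, and BCAT-2, a branched-chain aminotransferase, had 21.96, 11.7 and 17.803 CPM in CL, against 43.6, 34.2 and 91.8 CPM in Q1L, 19.5, 27.3 and 23.7 CPM in Q2L and 23.7, 308 and 62.9 CPM in Q3L. Without Q3L replicate 2 the list median was -0.13, and by group it was -0.43 against Q1L, -0.10 against Q2L and -0.86 against Q3L.

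Of 67 mitochondrial genes tested, 57 had a positive difference, beside 50.1% of all genes, with a median of 0.55. At an unadjusted p of at most 0.05, 4 were higher and 2 lower, beside 2.01% and 3.27% of all genes. With no filter on low counts 77 of 118 were positive, with a median of 0.40. The median was 1.03 against Q1L, 0.44 against Q2L and 0.23 against Q3L. The ribosomal protein gene ATMG00090 (Rps3) had 24.98, 28.2 and 23.2 CPM in CL, against 9.08 to 22.9 CPM in the 9 control libraries (median 14.9 CPM) and a difference of 0.78 ± 0.16 (DESeq2 adjusted p = 0.028, edgeR adjusted p = 0.377). The 27 nuclear photosystem subunits were near 0 but nearly uniform, 26 of them positive with a median of 0.15 (0.22 against Q1L, 0.23 against Q2L and -0.02 against Q3L). That list was drawn by gene symbol and may hold unrelated genes, and 2 members were higher in control roots than in control leaves. The 182 cytosolic ribosomal proteins had a median of 0.05.

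**Figure D5:**
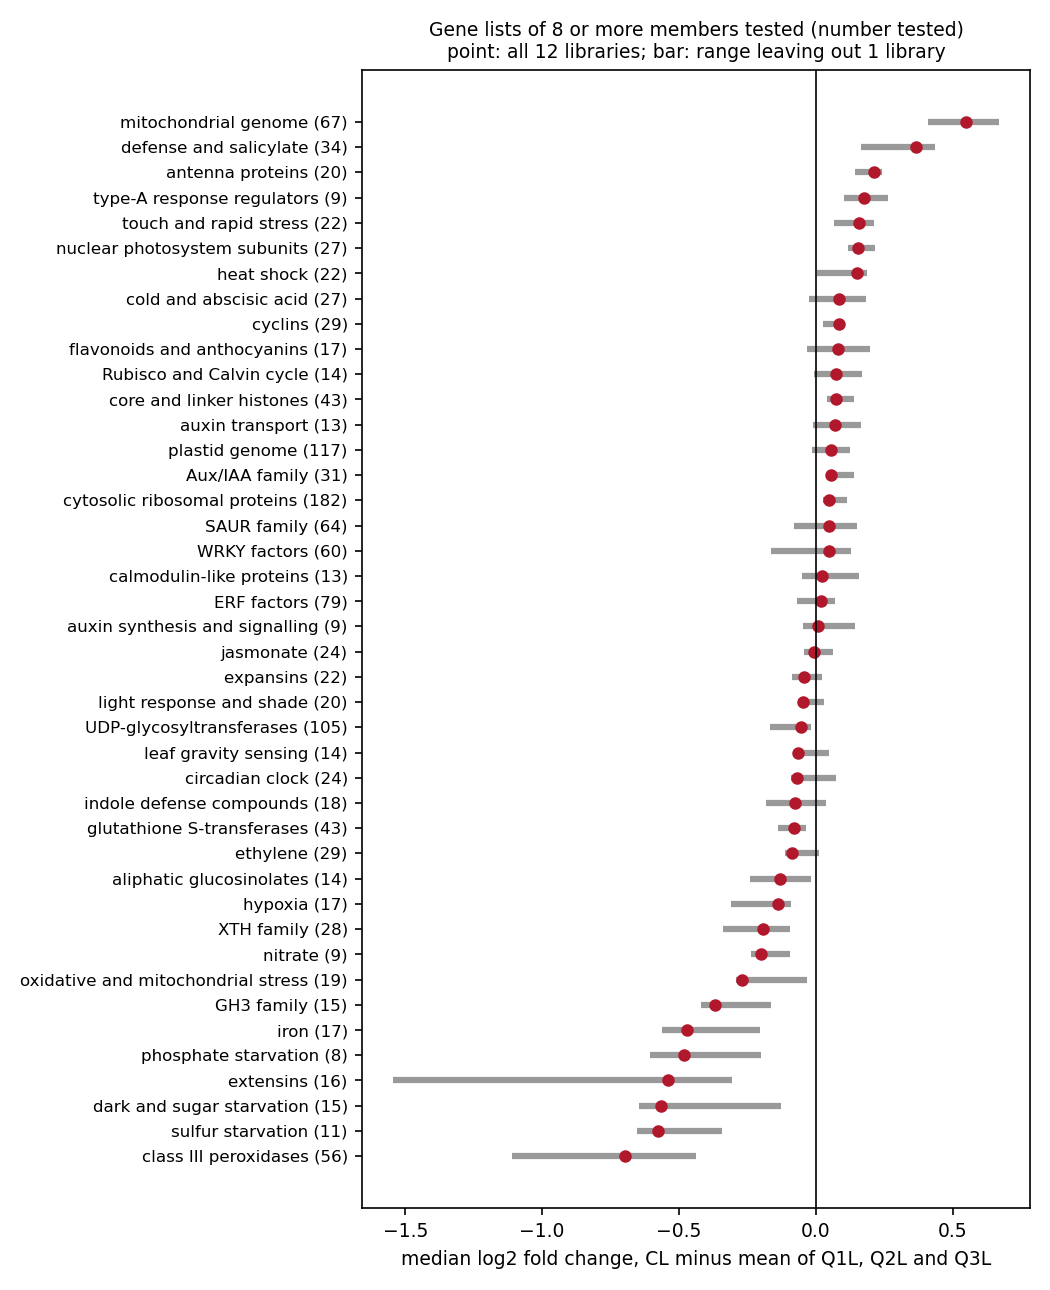
Median log2 fold change, CL minus the mean of Q1L, Q2L and Q3L, of each gene list with 8 or more members tested other than the root markers (red point, number tested in brackets), with the range when each of the 12 libraries was left out in turn (gray bar). With all 12 libraries the medians include 0.55 for the mitochondrial genome, 0.36 for defense and -0.70 for the class III peroxidases, and the bar of the dark and sugar starvation list reaches -0.13.

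Leaves and roots were dissected from the same KFTs, so the clinorotation difference in leaves was set against that in roots (CR minus the mean of Q1R, Q2R and Q3R) in 1 edgeR fit of 24 libraries. Of 23418 genes, 10 (0.0427%) had an interaction with an adjusted p of at most 0.05. In 4 of these, GRP5, AT4G21620, AT4G29020 and AT3G23450, the difference passed in roots alone, in 5, LTP3, AT5G05600, FLS2, MAPKKK19 and ST4B, in leaves alone, and in AT5G19240 in neither. The count was 3 without CR replicate 3, 129 without CR replicate 1, the deepest library, and 35 without Q3L replicate 1. This fit treated leaf and root libraries from the same plants as independent. With leaf and root libraries of a number joined in a replicate block GRP5 alone passed (edgeR adjusted p = 0.021), and LTP3 had an adjusted p of 0.053. The CPM that follow are scaled over leaf and root libraries together. In the cell wall glycine-rich protein GRP5 (interaction -3.82 ± 0.43, adjusted p = 0.00039) the difference was positive in roots and negative in leaves. It had 37.2, 106 and 157 CPM in CR, against 8.69, 10.1 and 9.87 CPM in Q1R, 7.18, 5.56 and 7.87 CPM in Q2R and 31.6, 24.1 and 26.7 CPM in Q3R. In leaves it had 19.1, 16.5 and 27.9 CPM in CL, against 74.0, 65.0 and 35.4 CPM in Q1L, 26.6, 23.53 and 14.4 CPM in Q2L and 43.4, 37.9 and 34.6 CPM in Q3L, so that CL overlapped Q2L and lay below Q1L and Q3L. LTP3, a lipid transfer protein, differed on the side of the leaves (interaction -5.99 ± 0.80, adjusted p = 0.0022). In leaves it had 0.0931, 0 and 0 CPM in CL, against 2.62, 0.712 and 0.495 CPM in Q1L, 1.29, 1.70 and 1.41 CPM in Q2L and 2.54, 1.73 and 1.43 CPM in Q3L. In roots its differences were small, with 31.9, 31.8 and 28.6 CPM in CR, against 17.36, 29.5 and 13.6 CPM in Q1R, 25.2, 15.8 and 14.5 CPM in Q2R and 30.2, 26.2 and 31.1 CPM in Q3R. In the fit of both tissues 16 genes passed in leaves, 4 higher and 12 lower.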

How the data were processed

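Leaf and root RNA of 7-day-old seedlings was made into directional poly(A) libraries. The authors trimmed reads with cutadapt, aligned them with STAR to TAIR10, removed duplicates and counted uniquely mapped reads per gene with HTSeq. The deposited counts are raw whole numbers. The strand setting of the counting is not given in the sources used here. The authors' own fold changes and p-values, which stand beside the counts, were not used. Counts of 12 leaf libraries (25711 genes, 25463 named by RefSeq TAIR10.1) were filtered with filterByExpr, scaled by TMM and fitted in edgeR 4.0.16 (R 4.3.3) with 4 groups, and the contrast was CL minus the mean of the 3 controls by the quasi-likelihood test. Genes called had a Benjamini-Hochberg adjusted p of at most 0.05 with a log2 difference of 1 or more up or down, and genes passed had that p alone. Alternatives were DESeq2 1.42.0, RLE scaling, no filter, pooled controls, Q4L added, a replicate block, leaving out each library, an unadjusted p and no fold requirement.

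Members and lists were chosen with earlier results of these data known. Genes named by rule are up to 12 per direction among those called, up to 5 passed members per list, and the member with the lowest p of the gravity and auxin transport lists, which gave SEX1 and PIN7. All others were chosen after their values were seen. Replicates differed by more than sampling noise in every pair (variance at least 30.8 times Poisson). The test was checked on simulated counts. Totals of 37065949 counts or more in the 12 libraries make counting error small for all but genes near 0.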

Additional observations from a re-analysis of the deposited data

Results flagged for a closer look

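The 10 genes below were singled out because the clinorotation difference in leaves was not the same as that in roots (edgeR interaction, adjusted p of at most 0.05, leaf minus root on the log2 scale ± SE, 24 libraries). Leaf and root libraries from the same plants were treated as independent.

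In 4 genes the difference in roots passed, and CPM in the joint scaling are given for roots. These were the glycine-rich proteins GRP5 (-3.82 ± 0.43, adjusted p = 0.00039), AT4G21620 (-2.48 ± 0.33, adjusted p = 0.0022) and AT4G29020 (-2.42 ± 0.38, adjusted p = 0.014), and AT3G23450 (-3.80 ± 0.69, adjusted p = 0.047), annotated as a transmembrane protein. AT4G21620 had 16.8, 24.5 and 38.3 CPM in CR, against 3.14, 3.75 and 4.90 CPM in Q1R, 6.25, 4.40 and 9.14 CPM in Q2R and 15.2, 13.7 and 11.4 CPM in Q3R. AT4G29020 had 38.3, 58.5 and 76.6 CPM in CR, against 4.26, 10.8 and 13.05 CPM in Q1R, 9.42, 5.11 and 10.1 CPM in Q2R and 32.9, 28.0 and 35.5 CPM in Q3R. AT3G23450 had 5.52, 9.80 and 18.3 CPM in CR, against 0.103, 0.114 and 0.717 CPM in Q1R, 0.855, 0.306 and 1.36 CPM in Q2R and 4.77, 3.20 and 0.663 CPM in Q3R. In all 3 the CR libraries were high, and Q3R stood above most Q1R and Q2R libraries as well.

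In 5 genes the difference in leaves passed. The interaction was -5.99 ± 0.80 in LTP3 (adjusted p = 0.0022), -1.65 ± 0.26 in AT5G05600 (adjusted p = 0.014), -8.25 ± 1.27 in FLS2, annotated as an inactive flavonol synthase (adjusted p = 0.014), -9.51 ± 1.62 in MAPKKK19 (adjusted p = 0.038) and -8.16 ± 1.39 in ST4B, a sulfotransferase (adjusted p = 0.038). FLS2, MAPKKK19 and ST4B had no count in CL, so their sizes depend on the prior count and are no bounds. In the joint scaling ST4B had 0, 0 and 0 CPM in CL, against 1.67, 0.459 and 1.44 CPM in Q1L, 0.398, 0 and 0.157 CPM in Q2L and 0.269, 0.351 and 0.602 CPM in Q3L, and in control roots 49.1 CPM. Root marker reads were on the whole lowest in CL, where LTP3, AT5G05600, FLS2 and ST4B were lower as well. Among the controls LTP3 and ST4B were highest in Q1L replicate 1, which held most root marker reads (28.4 CPM). FLS2 was highest in Q1L replicate 3 (6.83 CPM of root markers) and AT5G05600 in Q3L replicate 2, which held fewest (2.69 CPM). The part of root marker reads in these leaf differences was not tested.

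AT5G19240 was the only one with a positive interaction (1.22 ± 0.22, adjusted p = 0.042), the leaf difference being 0.74 and the root difference -0.48. When each of the 24 libraries was left out in turn, GRP5, AT4G21620 and LTP3 passed in all 24 fits, AT4G29020 in 21, AT5G05600 and FLS2 in 20, MAPKKK19, ST4B and AT3G23450 in 12 and AT5G19240 in 10. With leaf and root libraries of a number joined in a replicate block GRP5 alone passed (adjusted p = 0.021), and the other 9 had an adjusted p of 0.053 to 0.40.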

How the results depend on the processing

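The count of 0 genes called in CL against the mean of Q1L, Q2L and Q3L was also 0 with RLE size factors, with the 9 controls as 1 group, with Q4L added to the controls, with the replicate number as a block and without the fold requirement. It was 52 with DESeq2, 36 with no filter on low counts (4 higher, 32 lower), 425 at an unadjusted p with the same fold, and 0 to 5 when each library was left out in turn. Of 25711 genes unfiltered against 21648, those added have few counts. Members of the gene lists called were 0, against 12 with DESeq2, 14 with no filter and 0 to 2 when each library was left out. The interaction count of 10 was 306 with DESeq2, 1 with leaf and root libraries of a number joined in a replicate block, and 3 to 129 when each library was left out. The 14 genes that differ among the unrotated groups were 193 with DESeq2, 256 with no filter, 9 with the replicate block and 6 to 105 when each library was left out. The cause of these shifts was not tested.

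Alternatives chosen after seeing the data were a fit of leaf and root libraries together, which called 16 genes in leaves and 2 list members, and leaving out the control library of each group with most root marker reads, which gave 0 called in CL and 81 among the unrotated groups. DESeq2 with the 9 controls as 1 group called 41 genes. For 49 named genes, 910 settings kept the direction and the side of the threshold, 70 kept the direction and passed, and 0 changed direction. Most of these genes were chosen after their values were seen, and the settings reuse the same libraries. A kept direction was therefore likely beforehand and is no independent support.

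Replicate numbers were shared by the groups, and libraries of the same number were hardly alike in their deviations from the group mean. The mean correlation of deviations was 0.0077 over 18 pairs of the same number and -0.0038 over others, 1 pair exceeded 0.1, and 5 of 12 libraries correlated best with their own number. Between leaves and roots 0 of 12 pairs exceeded 0.1, which does not undo that leaf and root libraries came from the same plants.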

Other observations

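Of 24 circadian clock genes, 4 were higher and 0 lower in CL at an unadjusted edgeR p of at most 0.05, beside 2.01% and 3.27% of all genes, and 0 passed. The 4 were CCA1, CDF1, CDF2 and CDF3, which are expressed around dawn. They do not stand for the list, as 11 of the 24 differences were positive and 13 negative (median -0.07). CCA1, a core MYB repressor of the clock, had 85.0, 219.8 and 121 CPM in CL, against 56.8, 78.8 and 87.5 CPM in Q1L, 77.6, 47.7 and 92.6 CPM in Q2L and 172, 121 and 151 CPM in Q3L. CL overlapped Q3L, fixed at the same time after sealing, and its lowest library was above Q1L and Q2L but for 2 libraries. CDF1, a repressor of CONSTANS, had 8.74, 9.76 and 8.06 CPM in CL, against 3.34, 5.14 and 2.97 CPM in Q1L, 4.76, 5.64 and 5.65 CPM in Q2L and 12.5, 8.77 and 15.1 CPM in Q3L, and here CL was above Q1L and Q2L and overlapped Q3L. The differences from Q1L, Q2L and Q3L were 0.93, 0.96 and -0.06 in CCA1 and 1.21, 0.73 and -0.45 in CDF1. These genes were chosen after their values were seen.

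Of 17 iron genes 0 passed, and 3 were lower at an unadjusted edgeR p of at most 0.05, beside 3.27% of all genes. The regulator BHLH100 had 0, 0 and 0.0210 CPM in CL, against 1.297, 0.0607 and 0.628 CPM in Q1L, 26.0, 0 and 0.0603 CPM in Q2L and 0.500, 1.89 and 0.739 CPM in Q3L, so that 1 Q2L library (replicate 1) held most of its reads, and IRT1, the iron transporter of the root epidermis, had 0, 0.234 and 0 CPM in CL, against 0.0652 to 5.28 CPM in the controls. The 5 shoot meristem markers summed to 8.68 to 10.9 CPM in CL, against 13.7 to 15.9 CPM in Q1L, 9.52 to 17.3 CPM in Q2L and 8.53 to 10.9 CPM in Q3L.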
